A study of Homo sapiens with 10 samples.

Results

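The 36 genes described here encode aminoacyl-tRNA synthetases, 20 of them the enzymes of the cytosol and 16 those of mitochondria. They were chosen as a listed set of symbols, with no measured value in the rule but with earlier results of these data known. All 36 were found among the 32738 genes of the count table. All 36 also passed the filter on low counts, which left 12733 genes for testing. The cells were HepG2, an established human hepatoma line, grown either in regular medium (control) or for 17 h with 2 µg/ml tunicamycin, an inhibitor of N-linked glycosylation that loads the endoplasmic reticulum with misfolded protein. Each condition had 5 libraries of the 3′ ends of polyadenylated RNA, from replicate experiments done on separate days, and the question was which transcripts change under endoplasmic reticulum stress. All values come from a single tumor-derived line, dose and time.

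Total counts were 4242538 to 4888292 in the control libraries and 2234682 to 5029864 in the tunicamycin libraries, with tunicamycin replicates 5 and 4 the shallowest. Genes of the mitochondrial genome took 22.7% to 25.2% of counts in control, 18.3% to 21.5% in tunicamycin replicates 1 to 3, 28.8% in replicate 4 and 24.6% in replicate 5. Of 6 tested stress genes 4 rose, where 17.6% of all tested genes were called higher. Among the 4 was HSPA5, the chaperone BiP, which rose 7.84-fold. ATF4 and SESN2 were not called. CHAC1, also on this list, had 0 counts in all libraries, and whether its reads were lost in counting was not tested. The hepatocyte gene ALB was abundant in every library, at 9077 to 13025 normalized counts in control and 9411 to 13397 with tunicamycin, whereas APOA1, APOB and TTR, 3 of 7 hepatocyte markers, fell. The summed level of the 7 hepatocyte markers was 58575 to 73944 in control and 46396 to 52165 with tunicamycin. Of 5 markers of other cell types, the leukocyte genes PTPRC and CD3E had 0 counts in all libraries, and the 5 together gave 19 to 41 raw counts per control library and 5 to 24 per tunicamycin library. Nearly all of these counts came from CD68, which was called lower with tunicamycin (log2 fold change -0.83, edgeR adjusted p = 0.0319). The part of these shifts in the values below was not tested. In bulk RNA, fewer cells with a transcript and less of it per cell cannot be told apart.

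Aminoacyl-tRNA synthetases join each amino acid to its tRNA, the step that sets which amino acid a codon receives. The cytosolic and the mitochondrial enzymes are mostly products of different nuclear genes, the mitochondrial ones usually carrying the suffix 2, while GARS and KARS supply both compartments from one gene. Several cytosolic enzymes are held with the scaffold proteins AIMP1, AIMP2 and EEF1E1 in the multisynthetase complex. Endoplasmic reticulum stress activates the kinase PERK, which slows translation initiation and raises the translation of the transcription factor ATF4, and genes of cytosolic synthetases are among the known targets of ATF4. The symbols are those of the count table, which gives AARS for the gene now called AARS1, and so on.

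Transcripts of the cytosolic enzymes were mostly higher with tunicamycin, whereas those of the mitochondrial enzymes moved in both directions. Of the 20 cytosolic members 12 rose, 1 fell and 7 did not pass the test (edgeR's quasi-likelihood test, Benjamini-Hochberg adjusted p under 0.05 over all 12733 genes). Of the 16 mitochondrial members 3 rose, 4 fell and 9 did not pass it. Among all tested genes, 17.6% were called higher, 16.6% lower and 34.2% in either direction, so that the 3 and 4 mitochondrial calls lie near this background and the 12 cytosolic calls above it. The median log2 fold change was 0.35 over the cytosolic members, -0.058 over the mitochondrial members and -0.0033 over all genes tested. In the 5 pairs of libraries with the same replicate number, the median over cytosolic members was between 0.29 and 0.45, and that over mitochondrial members between -0.18 and 0.08. With library totals as the only scaling, 1774 of 4344 calls over all genes were higher, against 2237 of 4353 with the TMM scaling used here. The medians were then 0.27 over cytosolic members, -0.14 over mitochondrial members and -0.083 over all genes, and 9 cytosolic members were called higher.

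**Figure D1:**
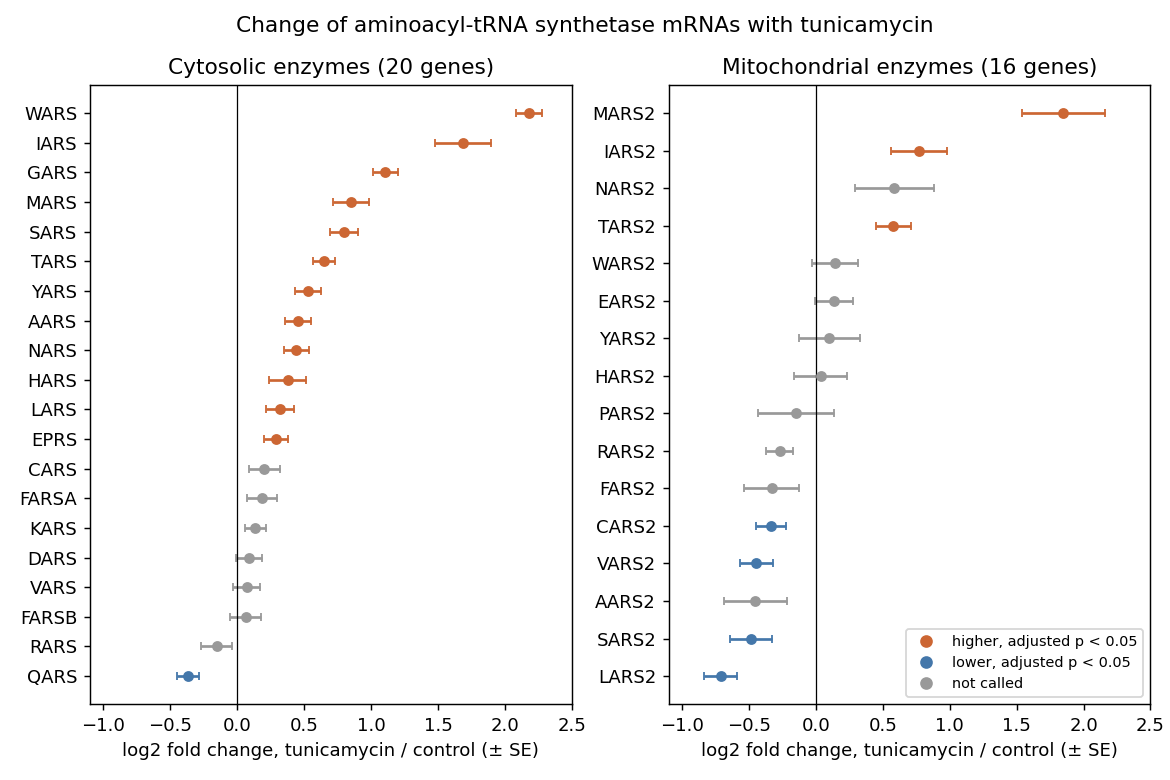
Log2 fold change of each of the 36 transcripts, tunicamycin over control, on the horizontal axis, with bars for the standard error of the edgeR fit and colors for the call. WARS at 2.18 and MARS2 at 1.85 lie farthest to the right, QARS at -0.37 is the cytosolic enzyme called lower, and LARS2 at -0.71 lies farthest to the left.

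WARS, the tryptophanyl-tRNA synthetase, changed most among the cytosolic members. Here and for the other genes, values of single libraries are normalized counts (counts scaled to a common library size) in the order of replicates 1 to 5, and fold changes are those of the fit. WARS had 276, 218, 239, 199.8 and 217 normalized counts without tunicamycin and 1099, 1055, 1112, 962 and 989 with it. Every tunicamycin library was far above every control library, and neither group had a library apart from the others. It rose 4.54-fold, from 230.0 ± 29.4 to 1043 ± 66.3 normalized counts (SD, n = 5; log2 fold change 2.18, SE 0.10, edgeR adjusted p = 4.2e-12). The pairs with the same replicate number gave log2 differences of 1.99 to 2.27, and the fold change exceeded that of 99.2% of tested genes. WARS lies on the minus strand at chr14:100333790-100376805 (GRCh38, from the GENCODE annotation matched by Ensembl identifier). A gene on the opposite strand that overlaps its 3′ end, ENSG00000258666, had 0 counts in all 10 libraries. The sources used here do not give the strand setting of the counting, and the part of this overlap in the WARS counts was not tested.

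IARS, the isoleucyl enzyme and a member of the multisynthetase complex (chr9:92210207-92293854, minus strand), rose 3.23-fold. It had 107, 105, 108, 155 and 105 normalized counts without tunicamycin and 182, 339, 366, 539.9 and 466 with it. The groups did not overlap, but the tunicamycin libraries spread widely, with replicate 1 lowest and the shallow replicates 4 and 5 highest, and control replicate 4 stood above the other controls. Replicates 4 and 5 also had the highest shares of mitochondrial-genome counts among the tunicamycin libraries, and the part of depth or of that share in this and other genes that were highest there was not tested. The means were 116 ± 21.9 and 379 ± 136 (SD, n = 5; log2 fold change 1.69, SE 0.21, edgeR adjusted p = 4.97e-06), and the log2 differences within pairs ran from 0.77 to 2.15. Without tunicamycin replicates 4 and 5 the log2 fold change was 1.36.

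GARS, the glycyl enzyme of both cytosol and mitochondria (chr7:30580533-30634033, plus strand), had the highest mean of the cytosolic members with tunicamycin. It had 643, 648, 802, 753 and 705 normalized counts without tunicamycin and 1545, 1687, 1609, 1324 and 1487 with it. The lowest tunicamycin library lay well above the highest control library. It rose 2.16-fold (log2 fold change 1.11, SE 0.09, edgeR adjusted p = 2.89e-08), with log2 differences of 0.82 to 1.38 within pairs.

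MARS, the methionyl enzyme, which charges both initiator and elongator tRNA, had 491, 639, 803, 822 and 927 normalized counts without tunicamycin and 1159, 1329, 1330.0, 1507 and 1316 with it. Control replicate 1 and tunicamycin replicate 1 were the lowest libraries of their groups, and the groups did not overlap. It rose 1.80-fold, from 737 ± 171 to 1328 ± 123 normalized counts (SD, n = 5; log2 fold change 0.85, SE 0.13, edgeR adjusted p = 5.95e-05). The 3′ end of MARS (chr12:57475445-57517569, plus strand) overlaps that of DDIT3, the stress transcription factor CHOP, on the opposite strand. DDIT3 itself rose from 159 ± 19.6 to 424 ± 58.5 normalized counts (2.67-fold, log2 fold change 1.42, SE 0.11, edgeR adjusted p = 2.1e-08). The library kit marks strand, but the strand setting of the counting is not given in the sources used here, and the part of DDIT3 reads in the MARS counts was not tested.

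**Figure D2:**
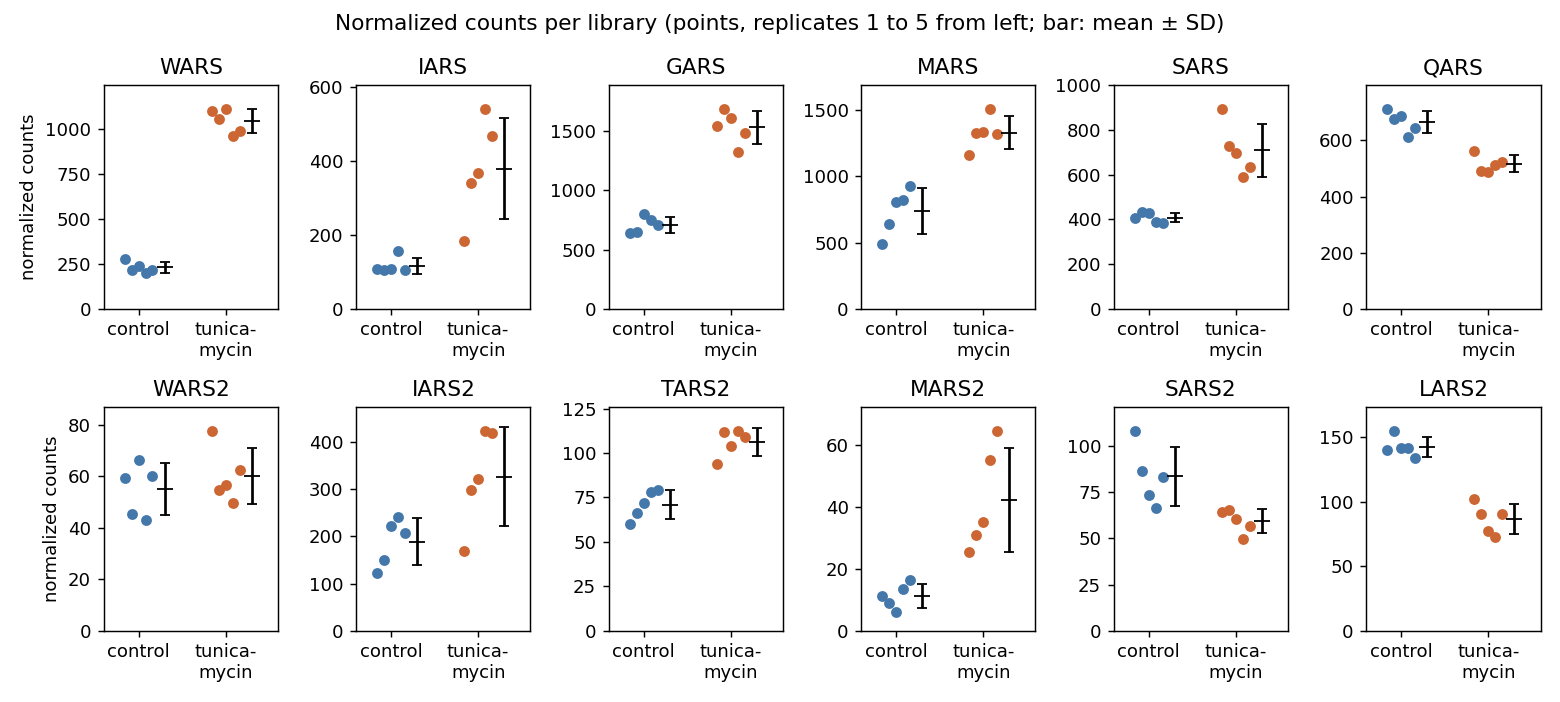
Normalized counts in each library (points, replicates 1 to 5 from left; bars, mean ± SD, n = 5) for 6 cytosolic enzymes in the upper row and 6 mitochondrial enzymes in the lower row. Control and tunicamycin do not overlap for any of the upper genes nor for TARS2, MARS2, SARS2 and LARS2, whereas they overlap for WARS2 and IARS2.

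A group of 5 further cytosolic enzymes rose by less and without overlap between the groups. SARS, the seryl enzyme, went from 408 ± 21.5 to 708 ± 117 normalized counts (SD, n = 5; log2 fold change 0.80, SE 0.10, edgeR adjusted p = 7.86e-06). TARS, the threonyl enzyme, went from 591 ± 32.0 to 927 ± 65.1 normalized counts (SD, n = 5; log2 fold change 0.65, SE 0.08, edgeR adjusted p = 5.2e-06). YARS, the tyrosyl enzyme, went from 402 ± 47.8 to 579 ± 56.3 normalized counts (SD, n = 5; log2 fold change 0.53, SE 0.10, edgeR adjusted p = 0.000348). All 3 were higher in 5 of 5 pairs, with folds of 1.74, 1.57 and 1.44. AARS, the alanyl enzyme, rose from 578 ± 75.3 to 791 ± 54.1 normalized counts (SD, n = 5; log2 fold change 0.45, SE 0.09, edgeR adjusted p = 0.00102), and NARS, the asparaginyl enzyme, from 793 ± 46.3 to 1074 ± 136 normalized counts (SD, n = 5; log2 fold change 0.44, SE 0.09, edgeR adjusted p = 0.00112). With WARS, IARS, GARS and MARS, these make 9 cytosolic genes in which every tunicamycin library was above every control library, and QARS was the 1 with every library below. Over all tested genes the shares were 11.7% above and 11.9% below.

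EPRS, HARS and LARS also passed the test, but their calls depended on single libraries. EPRS, which carries the glutamyl and prolyl activities in one protein, had 779, 838, 952, 969 and 811 normalized counts without tunicamycin and 1171, 1156, 1033, 1032 and 916 with it (log2 fold change 0.29, SE 0.09, edgeR adjusted p = 0.0202). The lowest tunicamycin value lay within the control range, and the adjusted p from edgeR was 0.0522 without control replicate 2, 0.0548 without control replicate 5 and 0.0502 without tunicamycin replicate 2. HARS, the histidyl enzyme, had 101, 74.9, 66.5, 93.2 and 78.3 normalized counts without tunicamycin and 102, 108, 109.6, 119.5 and 96.9 with it (log2 fold change 0.38, SE 0.14, edgeR adjusted p = 0.0401). Its edgeR adjusted p was 0.0933 without control replicate 2, 0.0982 without control replicate 3, 0.0777 without control replicate 5, 0.0692 without tunicamycin replicate 2, 0.0756 without tunicamycin replicate 3 and 0.0861 without tunicamycin replicate 4, and 0.0918 without both of the shallow tunicamycin libraries. HARS overlaps WDR55 on the opposite strand at its 3′ end, and the part of that gene in its counts was not tested. LARS, the leucyl enzyme, had 304, 324, 276, 329 and 305 normalized counts without tunicamycin and 434, 439.6, 338, 324 and 377 with it (log2 fold change 0.32, SE 0.10, edgeR adjusted p = 0.0207). Tunicamycin replicates 1 and 2 were its highest libraries and replicate 4 lay inside the control range, and the edgeR adjusted p was 0.0539 without control replicate 3, 0.0568 without tunicamycin replicate 1 and 0.0644 without tunicamycin replicate 2. With library totals as the only scaling the edgeR adjusted p was 0.133 for EPRS, 0.119 for HARS and 0.121 for LARS, for HARS it was 0.0569 with no filter on low counts, and for LARS 0.0878 after thinning to the smallest library.

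QARS, the glutaminyl enzyme of the multisynthetase complex (chr3:49095932-49105130, minus strand), was the cytosolic member that fell. It had 712, 678, 688, 610.1 and 642 normalized counts without tunicamycin and 563, 492, 487, 514 and 523 with it. All 5 tunicamycin libraries lay below all 5 control libraries. It was 1.29-fold lower with tunicamycin (log2 fold change -0.37, SE 0.08, edgeR adjusted p = 0.00170), and the call held in all 18 alternatives.

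The other 7 cytosolic members did not pass the test. CARS, the cysteinyl enzyme, had 406, 331, 325, 284 and 293 normalized counts without tunicamycin and 449, 383, 351, 313 and 389 with it. It was higher in 5 of 5 pairs, with an edgeR adjusted p of 0.177, which was 0.0360 without control replicate 1. FARSA, the catalytic subunit of the phenylalanyl enzyme, had 500.1, 416, 367, 336 and 369 normalized counts without tunicamycin and 458, 411, 487, 514 and 391 with it (edgeR adjusted p = 0.205, and 0.0315 without control replicate 1). In both genes control replicate 1 was the highest control library. FARSB, the other subunit, had 370.1, 332, 329.8, 269.7 and 279 normalized counts without tunicamycin and 352, 324, 353, 369.5 and 240.1 with it (log2 fold change 0.062, SE 0.12, edgeR adjusted p = 0.720). VARS, the valyl enzyme, had 299.5, 259, 267, 265 and 254 normalized counts without tunicamycin and 333, 247, 309, 259.6 and 258 with it (log2 fold change 0.071, SE 0.10, edgeR adjusted p = 0.634). The 2 last genes had the smallest changes among cytosolic members, and their groups overlapped. DARS, KARS and RARS, the aspartyl, lysyl and arginyl enzymes of the multisynthetase complex, had log2 fold changes of 0.086, 0.14 and -0.15 (edgeR adjusted p = 0.528, 0.206 and 0.336). KARS stood at 674 to 816 normalized counts in control and 735 to 827 with tunicamycin.

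The calls were spread over the structural groups of the cytosolic enzymes. Class I enzymes, whose catalytic domain is a Rossmann fold, had 5 of 9 members higher and 1 lower (median log2 fold change 0.32), and class II enzymes, built on an antiparallel sheet, had 6 of 10 higher and 0 lower (median 0.41). EPRS holds a domain of each class and was left out of both counts. Among the 8 members of the multisynthetase complex 4 rose and 1 fell, with a median of 0.21. Outside the complex 8 of 12 rose and 0 fell, with a median of 0.45. Over all tested genes 17.6% were called higher and 16.6% lower. The counts inside and outside the complex include EPRS, LARS and HARS, whose calls depended on single libraries. No difference between these groups was tested.

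Transcripts of the 3 non-enzymatic scaffold proteins of the complex all rose, where 17.6% of all tested genes were called higher. AIMP1 went from 649 ± 24.4 to 842 ± 70.7 normalized counts (SD, n = 5; log2 fold change 0.37, SE 0.08, edgeR adjusted p = 0.00149), AIMP2 from 438 ± 66.0 to 663 ± 33.1 normalized counts (SD, n = 5; log2 fold change 0.60, SE 0.10, edgeR adjusted p = 0.000138) and EEF1E1 from 154 ± 28.6 to 257 ± 37.0 normalized counts (SD, n = 5; log2 fold change 0.73, SE 0.13, edgeR adjusted p = 0.000328). In all 3 every tunicamycin library lay above every control library, as in 11.7% of all tested genes. Of the enzymes of the same complex EPRS, IARS, LARS and MARS rose, KARS, RARS and DARS did not pass the test and QARS fell.

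Promoter sequences were examined because ATF4 is known to act on synthetase genes through a composite element with C/EBP factors. RefSeq windows (GRCh38.p14, from 250 bases before to 50 after an annotated start) were matched for 30 of the 36 members, 16 cytosolic and 14 mitochondrial. Some members had more than 1 window, and AARS2, DARS, LARS, VARS, VARS2 and YARS had none. The core of the element, searched as TTNCATCA on both strands, occurred in 7 of these 16 cytosolic members and in 1 of the 14 mitochondrial members, YARS2. Among all 27305 genes with a window, 4.46% held a match. Of the 7 cytosolic genes with a match 6 were called higher, where 17.6% of all tested genes were. The 7 sites are printed 5′ to 3′ along the strand of the gene, with the match in capitals.
IARS (chr9:92293692-92293721, minus strand): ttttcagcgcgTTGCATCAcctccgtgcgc
GARS (chr7:30594834-30594863, plus strand): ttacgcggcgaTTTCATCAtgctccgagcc
MARS (chr12:57488053-57488082, plus strand): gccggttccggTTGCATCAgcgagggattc
TARS (chr5:33440956-33440985, plus strand): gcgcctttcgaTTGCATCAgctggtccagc
AARS (chr16:70289675-70289704, minus strand): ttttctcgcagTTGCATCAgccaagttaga
NARS (chr18:57621804-57621833, minus strand): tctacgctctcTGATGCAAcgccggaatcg
CARS (chr11:3057407-3057436, minus strand): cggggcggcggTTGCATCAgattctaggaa

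In 4 of these genes (IARS, MARS, TARS and CARS) the match began within 13 bases of the RefSeq start of its window, in the same orientation as the gene. The match in GARS began 33 bases and that in AARS 187 bases before that start, and the match in NARS began 14 bases after it on the opposite strand. Such a start can lie inside the gene bounds given above, as it does for MARS and GARS. The median log2 fold change was 0.65 over the 7 cytosolic genes with the match and 0.19 over the 9 without it, of which 4 were called higher. WARS, the member with the largest change, and SARS had no match. Of the 7 genes CARS was the one not called. The element TGACGTGG, known for XBP1 and ATF6, occurred in CARS and in its mitochondrial counterpart CARS2 and in 0.927% of all genes. In CARS it lay in another window than the site printed above. The AP-1 element TGANTCA occurred in 0 of the 30 members with a window and in 9.37% of all genes. The endoplasmic reticulum stress element, CCAAT and CCACG separated by 9 bases, occurred in 0 of 30 and in 0.0916% of all genes. A match is a description of these letters in these windows and not of binding.

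Among the mitochondrial members, MARS2, which supplies methionine for mitochondrial initiation and elongation, changed most. MARS2 (chr2:197705369-197708395, plus strand) had 11.2, 8.92, 6.12, 13.4 and 16.3 normalized counts without tunicamycin and 25.3, 30.8, 35.0, 55.0 and 64.6 with it. The groups did not overlap, and the 2 shallow tunicamycin libraries, replicates 4 and 5, were the highest. It rose 3.60-fold, from 11.2 ± 3.93 to 42.1 ± 16.8 normalized counts (SD, n = 5; log2 fold change 1.85, SE 0.31, edgeR adjusted p = 0.00013). The level was low, and without tunicamycin replicates 4 and 5 the log2 fold change was 1.45.

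IARS2 and TARS2 were the other mitochondrial members that rose. IARS2 (chr1:220094132-220148041, plus strand) had 123, 151, 223, 242 and 206 normalized counts without tunicamycin and 169.8, 299, 322, 425 and 419.7 with it. Tunicamycin replicate 1 lay inside the control range and replicates 4 and 5 were again the highest, but the tunicamycin library was higher in 5 of 5 pairs, and replicate 1 was also the lowest control library. It rose 1.71-fold (log2 fold change 0.77, SE 0.21, edgeR adjusted p = 0.00729). Without tunicamycin replicates 4 and 5 the log2 fold change was 0.49 and the call was lost (edgeR adjusted p = 0.0999). TARS2 (chr1:150487414-150507602, plus strand) varied less, at 60.3 to 79.3 normalized counts in control and 93.8 to 113 with tunicamycin (1.49-fold, log2 fold change 0.58, SE 0.13, edgeR adjusted p = 0.00189).

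LARS2, the mitochondrial leucyl enzyme, showed the largest decrease of the 36 genes. LARS2 (chr3:45388561-45554726, plus strand) had 140.3, 155, 142, 142 and 134 normalized counts without tunicamycin and 102, 90.3, 77.5, 72.8 and 90.8 with it. All tunicamycin libraries lay below all control libraries. It was 1.64-fold lower with tunicamycin (log2 fold change -0.71, SE 0.12, edgeR adjusted p = 0.000164), while the cytosolic LARS rose.

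VARS2, SARS2 and CARS2 fell as well. VARS2 had 217, 220.3, 171, 169 and 166 normalized counts without tunicamycin and 135, 159.8, 149, 125 and 117 with it (log2 fold change -0.45, SE 0.12, edgeR adjusted p = 0.00876). Its groups did not overlap, and the edgeR adjusted p was 0.0715 without the 2 shallow tunicamycin libraries. SARS2 had 108, 86.5, 73.5, 66.3 and 83.3 normalized counts without tunicamycin and 64.2, 65.5, 60.5, 49.5 and 56.5 with it (log2 fold change -0.49, SE 0.16, edgeR adjusted p = 0.0216), with an edgeR adjusted p of 0.0668 without control replicate 1 and 0.0575 without tunicamycin replicate 4, and 0.110 without both shallow libraries. CARS2 had 195, 172, 186, 155 and 209 normalized counts without tunicamycin and 144, 142, 165, 126.4 and 147 with it (log2 fold change -0.34, SE 0.11, edgeR adjusted p = 0.0282), with an edgeR adjusted p of 0.0556 without control replicate 3, 0.0802 without control replicate 5, 0.0610 without tunicamycin replicate 2 and 0.0735 without tunicamycin replicate 4, and 0.119 without both shallow libraries. All 3 genes were lower in 5 of 5 pairs. Without tunicamycin replicate 4 the number of mitochondrial members called lower was 2, and without replicates 4 and 5 it was 1. The 3′ ends of SARS2 and VARS2 overlap other annotated genes on the same strand (ENSG00000269547 and ENSG00000288473), so that their counts are uncertain by the share of those genes.

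The other 9 mitochondrial members did not pass the test. RARS2 had 259.9, 214, 234, 232 and 266 normalized counts without tunicamycin and 178, 226, 209.7, 183 and 202 with it (log2 fold change -0.27, SE 0.10, edgeR adjusted p = 0.0502), just outside the threshold, and the edgeR adjusted p was 0.0407 without control replicate 2 and 0.0373 without tunicamycin replicate 2. With DESeq2 the adjusted p of RARS2 was 0.0496. NARS2 had 20.7, 19.6, 21.0, 18.8 and 16.3 normalized counts without tunicamycin and 26.2, 11.9, 26.4, 38.5 and 50.4 with it (log2 fold change 0.59, SE 0.29, edgeR adjusted p = 0.133), with tunicamycin replicate 2 the lowest library of all, and an edgeR adjusted p of 0.0216 without tunicamycin replicate 2. HARS2, whose 3′ end overlaps ZMAT2 on the same strand, had 55.1, 55.3, 49.0, 34.0 and 44.7 normalized counts without tunicamycin and 60.8, 55.6, 39.7, 52.2 and 30.3 with it (log2 fold change 0.034, SE 0.20, edgeR adjusted p = 0.911). YARS2 had 57.7, 42.8, 70.0, 54.7 and 72.2 normalized counts without tunicamycin and 64.2, 70.5, 80.3, 24.7 and 76.7 with it (log2 fold change 0.10, SE 0.23, edgeR adjusted p = 0.772), with tunicamycin replicate 4 far below the rest. The 2 last genes had the smallest changes among mitochondrial members. AARS2 was lower in 5 of 5 pairs (log2 fold change -0.45, edgeR adjusted p = 0.145), and EARS2, FARS2, PARS2 and WARS2 had log2 fold changes of 0.13, -0.33, -0.15 and 0.14.

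Precision differed between the compartments. The mean control level was 82.7 to 870 normalized counts over the cytosolic members (median 493) and 11.2 to 241 over the mitochondrial members (median 62.1), with 1 and 11 members under 100. The standard error of the log2 fold change was above 0.15 for 1 of 20 cytosolic and 10 of 16 mitochondrial members.

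The summed levels showed the same contrast. Since each transcript gives about 1 fragment at its 3′ end in this kit, counts were added over genes without dividing by length. GARS and KARS, which supply both compartments, were counted as cytosolic only. Their means went from 710 to 1530 and from 715 to 786 normalized counts, and mitochondrial sums with them included were not computed. The 20 cytosolic genes summed to 9946 ± 274 normalized counts in control (range 9701 to 10254) and 14068 ± 711 with tunicamycin (13091 to 14804), a 1.41-fold increase with no overlap. The 16 mitochondrial genes summed to 1458 ± 53.9 (1378 to 1506) and 1457 ± 106 (1297 to 1594; SD, n = 5 for each). These similar sums hold changes in both directions. The largest differences of means, tunicamycin minus control, were 138 for IARS2, -55.9 for LARS2, -51.3 for VARS2, -41.6 for RARS2 and -38.6 for CARS2. The ratio of the sums was 6.83 ± 0.239 in control (6.44 to 7.09) and 9.72 ± 1.15 with tunicamycin (8.21 to 11.4). GARS, WARS and MARS made up 54.0% of the net cytosolic increase. The other 17 cytosolic genes summed to 8269 ± 385 (7852 to 8843) in control and 10166 ± 652 (9299.8 to 11002) with tunicamycin, 1.23-fold higher.

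**Figure D3:**
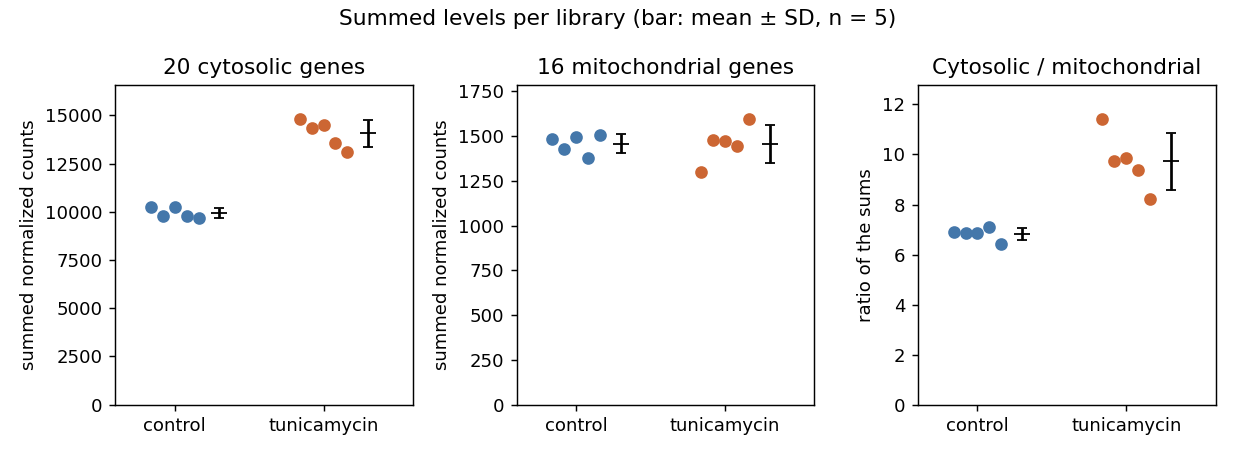
Summed normalized counts of the 20 cytosolic genes (left) and the 16 mitochondrial genes (middle), and the ratio of the sums (right), in each library (points, replicates 1 to 5 from left; bars, mean ± SD, n = 5). The cytosolic sums are separate, at 9701 to 10254 in control and 13091 to 14804 with tunicamycin, while the mitochondrial sums overlap.

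For 17 pairs of a cytosolic and a mitochondrial enzyme of one amino acid, the log2 ratio of their counts (with 0.5 added to each) was compared between conditions, which does not depend on the scaling of libraries. In 8 pairs the ratio rose, in 1 it fell and in 8 it did not pass the two-sided exact permutation test of 5 against 5 libraries, with p under 0.05 and no adjustment. EPRS and FARS2 each stand in 2 of the 17 pairs. Over all tested genes 34.2% were called in either direction, and the share of other gene pairs whose ratio would pass was not computed. The smallest p this design allows is 0.00794, and 6 pairs reached it. These tests treat the libraries as unpaired. A sign-flip test over the 5 replicate pairs cannot give an exact p below 0.0625, so that no ratio could pass that test at 0.05. No other paired test of the ratios was run. The median difference was 0.49. WARS to WARS2 changed most, from 2.07 ± 0.21 to 4.12 ± 0.22 (SD, n = 5; difference 2.05, exact permutation p = 0.00794), a 4.13-fold shift, while WARS2 itself was not called. SARS to SARS2 went from 2.30 ± 0.27 to 3.56 ± 0.14 (SD, n = 5; difference 1.26, exact permutation p = 0.00794) and LARS to LARS2 from 1.10 ± 0.10 to 2.13 ± 0.09 (SD, n = 5; difference 1.03, exact permutation p = 0.00794), with shifts of 2.39-fold and 2.04-fold. In these 2 pairs the cytosolic gene rose and the mitochondrial gene fell.

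AARS to AARS2 differed by 0.93 and CARS to CARS2 by 0.54, both with an exact permutation p of 0.00794. IARS to IARS2 went from -0.68 ± 0.35 to 0.19 ± 0.09 (SD, n = 5; difference 0.87, exact permutation p = 0.00794). In this pair both genes rose, and the mitochondrial transcript was the more abundant in 5 of 5 control libraries and the cytosolic one in 5 of 5 tunicamycin libraries. The ratios of VARS to VARS2 and FARSA to FARS2 rose by 0.51 and 0.49 (exact permutation p = 0.0238 for each), and that of FARSA to FARS2 gave p = 0.262 by the same exact test after thinning to the smallest library. MARS to MARS2 was the pair that fell, from 6.02 ± 0.57 to 5.04 ± 0.49 (SD, n = 5; difference -0.98, exact permutation p = 0.0238), and it was lower in 4 of 5 replicate pairs. TARS to TARS2, of which both rose, differed by 0.063 (exact permutation p = 0.508). Of the pairs that did not pass, EPRS to EARS2 and HARS to HARS2 did so without control replicate 4 (exact permutation p = 0.0476 for each) and FARSB to FARS2 without tunicamycin replicate 5 (exact permutation p = 0.0238).

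**Figure D4:**
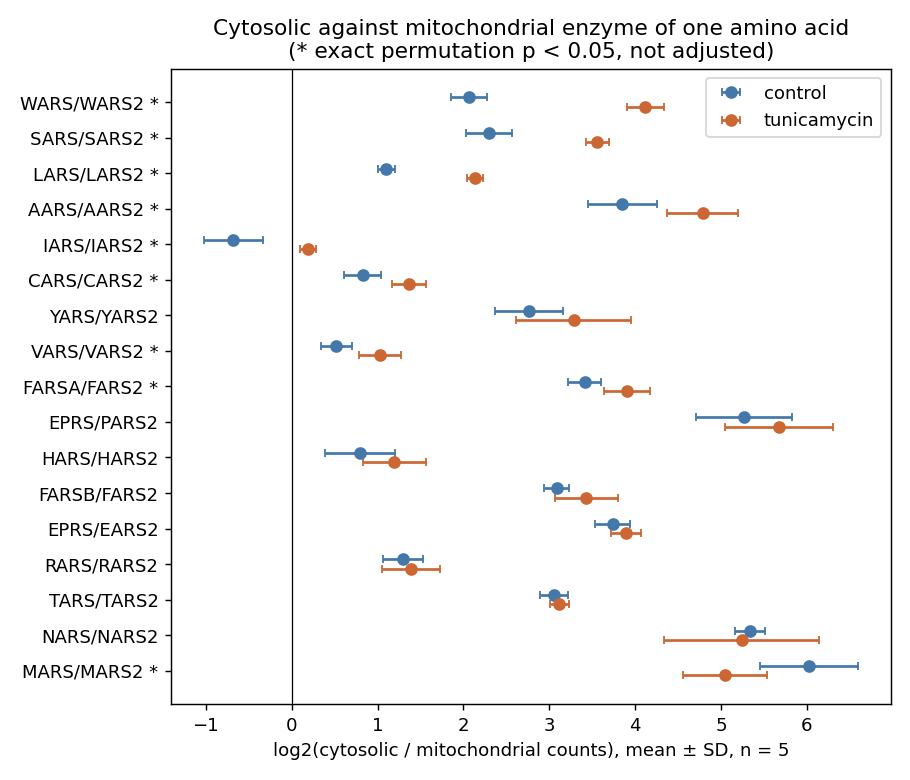
Mean log2 ratio of cytosolic to mitochondrial counts (± SD, n = 5) in control and tunicamycin libraries for 17 pairs, ordered by the difference, with a star where the exact permutation p is under 0.05 without adjustment. WARS/WARS2 shifts farthest to the right, from 2.07 to 4.12, and MARS/MARS2 shifts to the left, from 6.02 to 5.04.

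Of 22 tested related genes of tRNA charging and delivery, 10 rose and 0 fell, with a median log2 fold change of 0.43, where 17.6% and 16.6% of all tested genes rose and fell. The list was chosen with earlier results of these data known, so these shares describe it and do not test it. XPOT, which exports tRNA from the nucleus, rose 3.26-fold, from 97.0 ± 6.81 to 322 ± 129 normalized counts (SD, n = 5; log2 fold change 1.71, SE 0.20, edgeR adjusted p = 2.59e-06). It ranged from 215 to 488 normalized counts over the tunicamycin libraries, with replicates 4 and 5 the highest. DTD1, which removes D-amino acids from mischarged tRNA, rose 2.81-fold, from 196 ± 77.8 to 551 ± 74.5 normalized counts (SD, n = 5; log2 fold change 1.49, SE 0.21, edgeR adjusted p = 1.94e-05). MTFMT, which formylates the mitochondrial initiator methionyl-tRNA charged by MARS2, had a log2 fold change of 0.49 (edgeR adjusted p = 0.0469).

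Of the elongation factors that carry charged tRNA to the ribosome or recycle the carrier, EEF1A1, EEF1B2 and the mitochondrial TSFM rose, with log2 fold changes of 0.97, 0.58 and 0.91. EEF1D and TUFM did not pass the test. EEF1G was at 0 counts in all libraries, and whether its reads were lost in counting was not tested. EEF1A1 stood at only 159 to 475 normalized counts in control, and it has near-identical copies in the genome, so that its value is uncertain. PSTK, of the selenocysteine pathway, was called higher on 3 to 17 raw counts per library. The 3 subunits of the amidotransferase that makes mitochondrial glutaminyl-tRNA (QRSL1, PET112 and GATC) had log2 fold changes between -0.064 and 0.052. The ATF4 transcript had a log2 fold change of -0.035 (edgeR adjusted p = 0.823).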

How the data were processed

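The authors deposited raw counts of reads per gene from QuantSeq 3′ libraries, made with the nf-core RNA-Seq pipeline at default settings on hg19 with Ensembl transcripts. The sources used here do not name the aligner, counter or strand setting. Genes were kept by edgeR's filterByExpr with minimums of 2 and 10 (total), scaled by TMM and tested with the quasi-likelihood test on condition alone (R 4.3.3, edgeR 4.0.16, limma 3.58.1), with Benjamini-Hochberg adjustment over all tested genes. DESeq2, the tool of the study, was run as an alternative (version 1.42.0), beside other scalings and filters, thinning, a replicate block and leaving out libraries. The fit was tested on simulated data. Normalized counts are counts divided by effective library size, times its mean. Positions come from GENCODE 44 on GRCh38, and no hg19 coordinates are given.

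The series' design text places the 5 replicate experiments on separate days, and equal replicate numbers were taken as a shared day, which the labels do not state. Deviations from group means correlated by 0.360, 0.0198, 0.0792, 0.163 and 0.141 for replicates 1 to 5 over 9707 genes, and replicates 2 and 5 correlated best with another number. P-values measure the spread between these cultures of one line.

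The members and lists were chosen with earlier results of these data known. Values per library are given for the 4 cytosolic and 3 mitochondrial members with the largest and the 2 of each with the smallest absolute change and for those whose call differed under an alternative. QARS was added after its values were seen, and the other members are given in shorter form. Intervals from counting were not computed, since the replicate spread includes them. The value of 1 related gene, included in the counts over that list, is not reported here.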

Additional observations from a re-analysis of the deposited data

Results flagged for a closer look

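Of 80 groups of 5 libraries (the 36 genes, the summed levels, their ratio and the total counts, in each condition), 4 held a library far from the rest, and chance alone gives about 4. IARS had 155.0 normalized counts in control replicate 4, against 105 to 108 in the others. KARS had 816 in control replicate 1, against 674 to 704. VARS had 299.5 in control replicate 1, against 254 to 267. YARS2 had 24.7 in tunicamycin replicate 4, against 64.2 to 80.3.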

How the results depend on the processing

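Over 18 alternatives, 603 of 648 recomputed member results kept their direction and side of the threshold, 28 lost a call, 9 gained one and 8 changed sign without a call. Of 204 recomputed ratios over 12 alternatives, 195 kept both, 1 lost and 3 gained a call and 5 changed sign. With both shallow tunicamycin libraries left out, an alternative chosen after seeing the data, the number of mitochondrial members called lower was 1 and the log2 fold change of RARS was 0.010. Leaving out single libraries gave 2 to 5 mitochondrial members called lower, 9 to 14 cytosolic members called higher, and cytosolic medians of 0.32 to 0.39. With library totals as scaling the cytosolic median was 0.27 and that over all genes -0.083, and FARSB (-0.022), VARS (-0.0086) and HARS2 (-0.044) changed sign. Without single libraries, HARS2 ranged from -0.073 to 0.13 (also -0.059 and -0.018 among the values below 0) and YARS2 from -0.0098 to 0.30. Of the ratios, thinning to the smallest library gave 0.076 for NARS/NARS2 and -0.0058 for TARS/TARS2, and ended the call of FARSA/FARS2 (0.32, exact permutation p = 0.262). Leaving out a library gave -0.40 to 0.19 for NARS/NARS2 (0.053 among them) and -0.046 to 0.18 for RARS/RARS2. The cause was not tested. The replicate block changed no call of a member. With it, 4811 genes were called instead of 4353, and the medians were 0.35 (cytosolic) and -0.077 (mitochondrial). After thinning to the smallest library, 11 cytosolic members were called higher, and 3 mitochondrial members higher and 4 lower.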
